A study of Mus musculus with 2 samples.

Results

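The inducible AP-1, EGR and KLF factors are transcription factors, with a few companion genes, whose RNA builds up quickly when a cell receives a signal. The set held every listed gene whose symbol belongs to the FOS, JUN, EGR, KLF (without Klf9), IER or MYC families, selected MAF genes, and Arc, Dusp1, Batf3 and Srf. This gave 43 genes of the 18651 listed for either library. The study sequenced RNA of cultured immature oligodendrocytes from 1 control culture, labelled wild type, and 1 Seh1cKO culture, labelled mutant. Seh1cKO stands for a conditional knockout of Seh1l, which encodes a nuclear pore protein that is also part of GATOR. Both cultures were made from forebrain cortex of C57BL/6 pups, 4 to 7 days old, by immunopanning with anti-GalC and then anti-O4. The growth medium held PDGF-AA, CNTF, bFGF and NT3. Differentiation was then started with 60 nM T3, with PDGF-AA, bFGF and NT3 taken away, and RNA was collected on day 2. The sources used here give neither the Cre driver, the deleted exons nor the number of pups behind each culture.

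FOS and JUN proteins pair through leucine zippers to form AP-1, which binds short palindromes in enhancers and promoters. EGR and KLF proteins bind GC-rich DNA through zinc fingers, and MYC proteins bind E-boxes together with MAX. Growth factors that act through the ERK and JNK kinases switch on many of these genes, partly through SRF at CArG boxes. In oligodendrocyte precursors they mark mitogen signalling, and Klf6 and Klf13 have known roles in oligodendrocyte differentiation.

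Throughout, a pair of values gives the control library first and the Seh1cKO library second. Levels are reads per 1000000 assigned reads (CPM), or FPKM, which also divides by transcript length, where genes are compared with each other. A fold is the ratio of both CPM values with an exact 95% interval, and a log2 ratio is that of CPM + 1, Seh1cKO over control. The libraries held 20730114 and 20599590 assigned reads. With 1 library per group no spread between replicates exists, no test of genotype was possible, and the intervals cover counting error only. Seh1l had 666 and 382 reads, 1.73-fold lower (1.53 to 1.97). The library labelled control held 1053 reads of the Y-linked gene Ddx3y against 3, and the library labelled Seh1cKO held 7025 reads of Xist against 18, so sex and genotype cannot be told apart. The 1 X-linked member, Klf8, was under the level filter.

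Of the 43 genes, 38 averaged 1 CPM or more. Most stood modestly higher in Seh1cKO and few differed by 2-fold. A log2 ratio above 0 was found for 31 of the 38, where 60.9% of all 13758 measured genes had one, and below 0 for 7 (39.1% of all genes). Their median log2 ratio was 0.40, against 0.07 for all measured genes. Counts past 2-fold or 1.5-fold, here and below, use the log2 ratio of CPM + 1, which understates the difference of low genes. On that scale Fosl1 was the 1 member at least 2-fold higher and Mycl the 1 at least 2-fold lower. Klf4 and Klf5 were under the threshold on that scale but above 2 as plain CPM ratios, and with a pseudocount of 0.1 the count of higher members was 3. With 2.86% of all genes higher and 1.29% lower, these counts lie near the background. At 1.5-fold, a threshold added after the values were seen, 14 members were higher and 1 lower, where 9.43% of all genes were higher and 3.52% lower. With TMM scaling these were 10 and 2 members, and 7.5% and 4.54% of all genes. The interval of the fold lay above 1 for 24 of the 38 (35.5% of all genes) and below 1 for 5 (20% of all genes). Such an interval is narrower for genes with more reads, and the members were not matched to all genes by level. Klf5 was the 1 member that passed the filter through Seh1cKO alone.

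**Figure D1:**
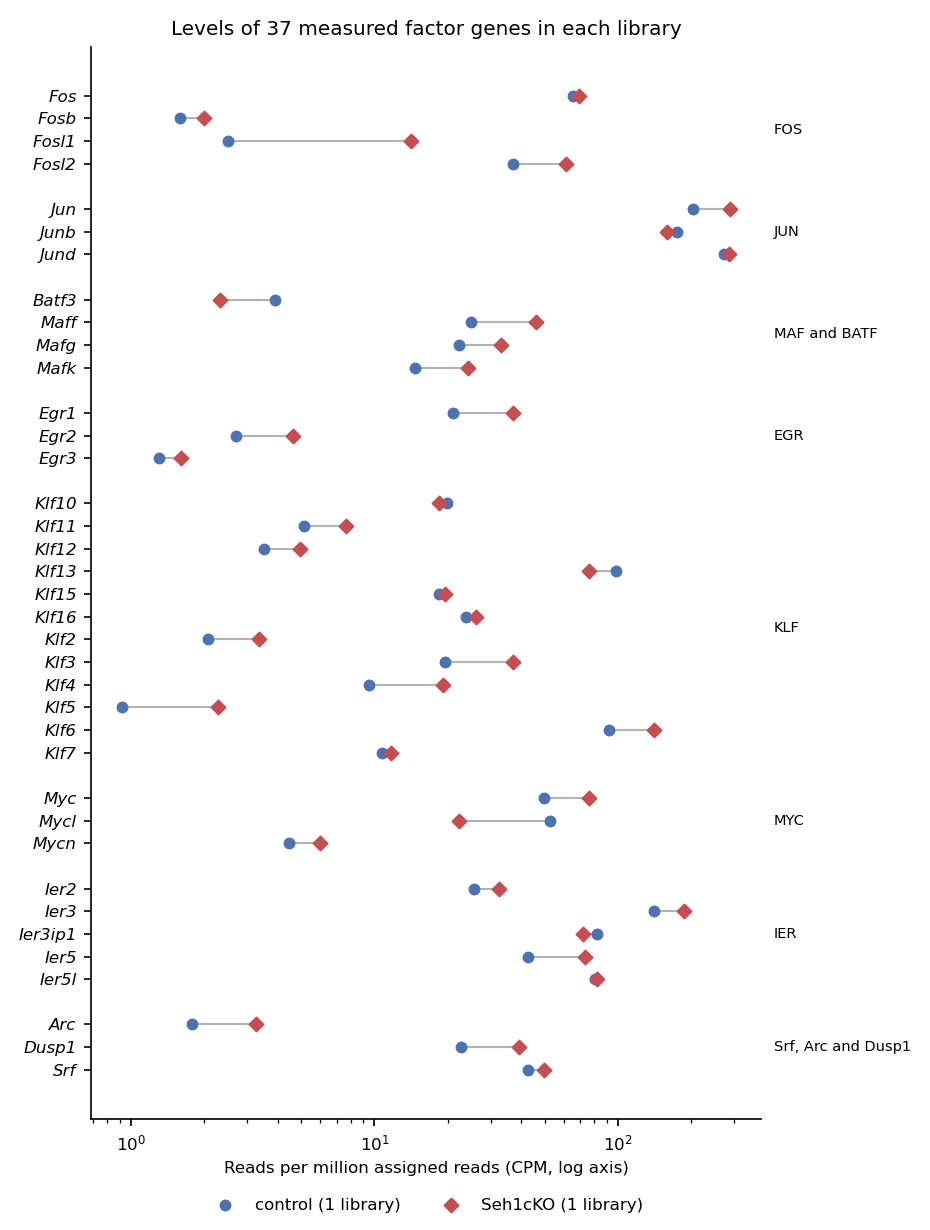
CPM of 37 of the 38 measured genes in the control library (circles) and the Seh1cKO library (diamonds) on a log axis, grouped by family, 1 library each. Fosl1 lies at 2.51 and 14.1 CPM and Mycl at 52.5 and 22.3 CPM, while the symbols of Fos, Jund and Ier5l nearly coincide.

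**Figure D2:**
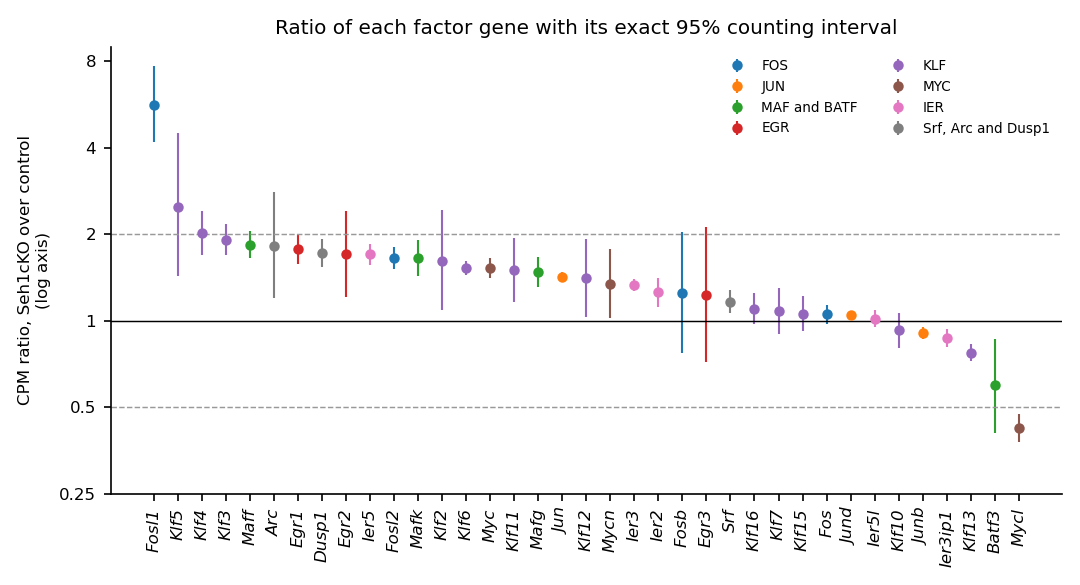
CPM ratio of Seh1cKO over control for the same 37 genes on a log axis, ordered by ratio and coloured by family, with exact 95% counting intervals and dashed lines at 2-fold. Fosl1 is highest at 5.63 and Mycl lowest at 0.424.

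The bulk libraries also differed in markers of cell types, and fewer cells of a type cannot be told apart from less RNA per cell. All 10 measured oligodendrocyte markers were at least 2-fold lower in Seh1cKO, with a median log2 ratio of -2.22. The 12 listed genes summed to 4833 and 1037 CPM, with Bcas1 at 1858 and 417 CPM and Cnp at 1037 and 347 CPM. Mobp and Ermn were under 1 CPM in both libraries. The 8 precursor markers summed to 1742 and 1605 CPM. Of these, 5 had a log2 ratio below 0, where 39.1% of all genes had one, and the median was -0.41. Gpr17 and C1ql1 were the 2 at least 2-fold lower, at 386 and 113 CPM and 53.9 and 20.4 CPM. Ptprz1 and Pdgfra, among the 3 above 0, had log2 ratios of 0.43 and 0.82. Astrocyte markers summed to 11620.1 and 7498 CPM, of which Gfap made 5200.1 and 2214 CPM. Gfap was the 1 of 8 past 2-fold, the median log2 ratio was -0.28, and Gja1 and Aldh1l1 went the other way, at 109 and 153 CPM and 414 and 483 CPM.

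Among the remaining cell types, which leave out the astrocytes, most measured markers were higher in Seh1cKO. Of all measured genes, 60.9% had a log2 ratio above 0 and 2.86% were at least 2-fold higher. All 10 fibroblast and mural markers had a log2 ratio above 0 and 6 passed 2-fold, with sums of 209.6 and 622 CPM. Col1a1 was at 45.2 and 184 CPM, Col3a1 at 24.1 and 119 CPM and Col1a2 at 20.02 and 69.7 CPM. Epithelial and mesothelial markers summed to 11.1 and 204 CPM, and 6 of 7 measured passed 2-fold. Most of these 6, such as Krt8 and Msln, were under 1 CPM in control and passed the filter through Seh1cKO alone. The filter itself thus favours such a count. Krt8 was at 0.772 and 78.7 CPM, Krt18 at 1.21 and 63.9 CPM and Msln at 0.0965 and 24.9 CPM, while Epcam was at 7.91 and 7.04 CPM and Upk3b had 0 reads in Seh1cKO. Endothelial markers summed to 11.1 and 25.4 CPM, and of 4 measured 3 had a log2 ratio above 0 and 1 below 0. Cdh5, the 1 past 2-fold, was at 1.01 and 13.8 CPM and made most of the difference between the sums. Cldn5 had 0 reads in control and 1 in Seh1cKO. Microglia markers summed to only 7.86 and 17.04 CPM, and 4 of the 7 were measured. All 4 had a log2 ratio above 0 and 1 passed 2-fold, but these values rest on few reads. Neuron markers summed to 414 and 436 CPM, mostly from Map2 (279 and 270.1 CPM) and Tubb3 (91.03 and 79.6 CPM), which were both slightly lower. Of 6 measured, 4 had a log2 ratio above 0, a share near the 60.9% of all genes, with a median of 0.70. Of these Stmn2 passed 2-fold, at 28.7 and 58.7 CPM. The part of these cells in the values of the factors was not tested.

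**Figure D3:**
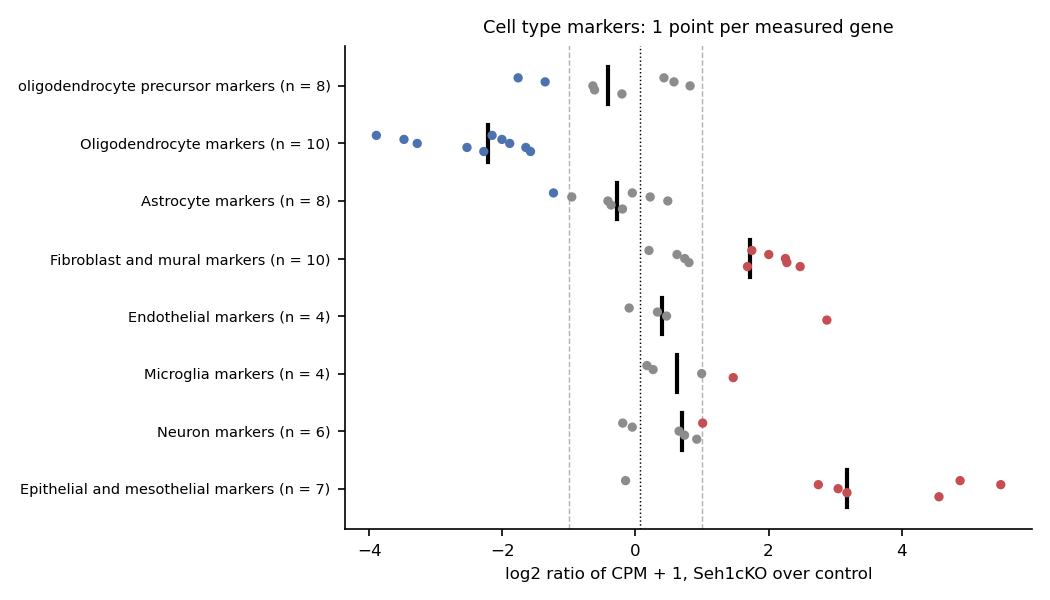
log2 ratio of CPM + 1 for the measured markers of 8 cell types, 1 point per gene, with black bars at list medians, dashed lines at 2-fold and a dotted line at the median of all genes (0.07). Oligodendrocyte markers lie at -1.58 or lower, and fibroblast and mural markers at 0.20 or higher.

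The FOS genes, whose proteins bind DNA as AP-1 only with a partner such as JUN, differed widely among themselves. Fosl1 encodes Fra-1, a FOS protein without a strong transactivation domain (chr19:5447698-5455938, GRCm38.p6). It had 52 and 291 reads, or 2.51 and 14.1 CPM. This was 5.63-fold higher (4.18 to 7.72), number 51 from the top of 13758 measured genes by log2 ratio. Its deposited counts were not whole numbers and its annotated span overlaps Ccdc85b, at 85.1 and 98.5 CPM, so the split of reads between both genes is uncertain. Fosl2, which encodes Fra-2, had 769 and 1265 reads, 1.66-fold higher (1.51 to 1.81). Fos, the classical rapid-response member (chr12:85473890-85477274), was at 65.5 and 68.9 CPM. The interval of its ratio of 1.05 (0.976 to 1.13) held 1, and its log2 ratio of 0.07 turned negative with TMM and median-of-ratios scaling. Fosb was near the filter, at 1.59 and 1.99 CPM. Fosl1 and Fosl2 were thus high in Seh1cKO, while Fos was nearly level.

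The make-up of a family does not depend on how the libraries are scaled. Of the length-scaled reads of the FOS family, Fos took 79.1% (77.7 to 80.5) in control and 62.96% (61.3 to 64.6) in Seh1cKO. Fosl1 took 3.75% (2.81 to 4.87) and 15.9% (14.3 to 17.6), Fosl2 16.04% and 20.1%. Reads of Fosl1 per read of Fos were 5.35 times as high in Seh1cKO (3.93 to 7.401). For Fosl2 per read of Fos the value was 1.57 (1.398 to 1.77).

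The JUN genes were the more abundant side of AP-1, with a family sum of 252 and 274 FPKM, against 39.1 and 51.8 FPKM for the FOS genes. Jun, a strong activator, had 4217 and 5953 reads, 1.42-fold higher (1.37 to 1.48). Jund, a broadly expressed subunit, had 5646 and 5859 reads, a ratio of 1.04 (1.01 to 1.08) whose log2 value of 0.06 turned negative with TMM and median-of-ratios scaling. Junb, which can oppose Jun, had 3637 and 3286 reads, 1.1-fold lower (1.05 to 1.15). Per length, Junb stood at 95.5 and 86.8 FPKM, Jund at 93.5 and 97.7 FPKM and Jun at 63.4 and 90 FPKM, so that Junb was first of the family in control and last in Seh1cKO. The share of Jun in the family was 25.2% (24.5 to 25.9) in control and 32.9% (32.2 to 33.6) in Seh1cKO. Reads of Jun per read of Junb were 1.56 times as high in Seh1cKO (1.47 to 1.66).

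**Figure D4:**
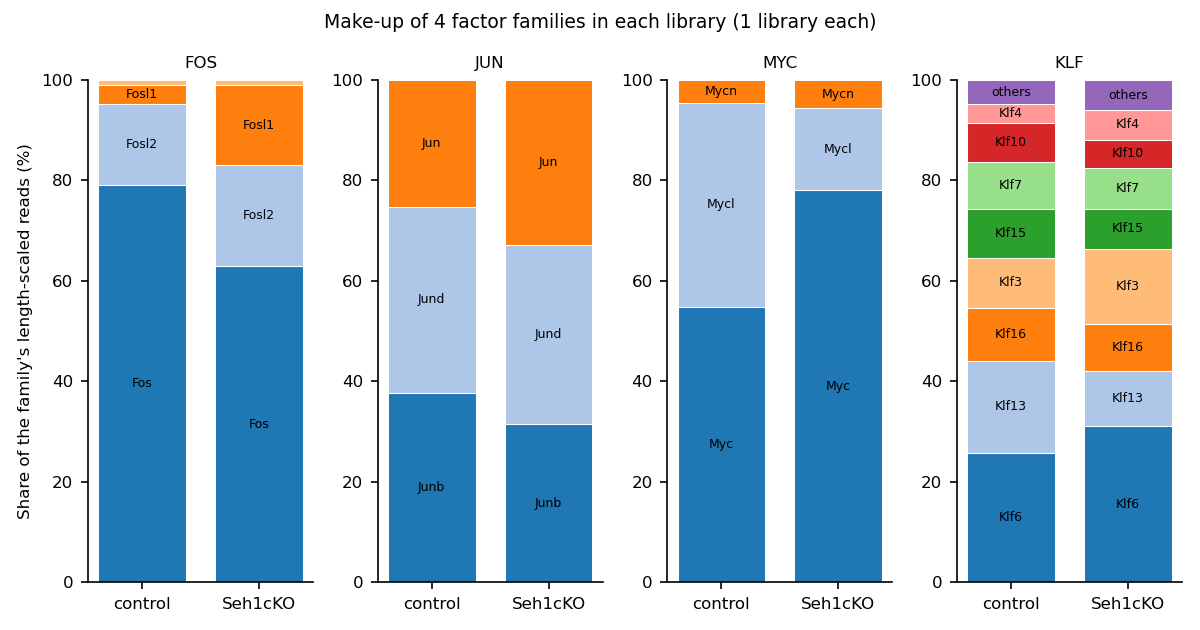
Share of each gene in the length-scaled reads of 4 families, in percent, for the control and the Seh1cKO library, with KLF genes under 3% in both drawn as others and Fosb as the unlabelled strip on top of FOS. Fosl1 goes from 3.75% to 15.9% of FOS, and Mycl from 40.7% to 16.2% of MYC.

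The small MAF proteins have no activation domain of their own and pair with NRF2-type and BACH factors. All 3 were higher in Seh1cKO. Maff had 518 and 948 reads, 1.84-fold higher (1.65 to 2.05). Mafk was at 14.7 and 24.3 CPM, 1.66-fold higher (1.43 to 1.92), and Mafg at 22.3 and 33.1 CPM, 1.48-fold higher (1.31 to 1.67). Batf3, a JUN partner known from dendritic cells, had 81 and 48 reads, 1.68-fold lower (1.16 to 2.45). Reads of Maff per read of Batf3 were 3.09 times as high in Seh1cKO (2.097 to 4.58).

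Among the EGR genes, zinc finger factors induced through SRF and ERK, Egr1 made up 84.04% and 85.4% of the length-scaled reads. Egr1 (chr18:34861207-34864956) had 434 and 766 reads, or 20.9 and 37.2 CPM, 1.78-fold higher (1.58 to 2.003). Egr2, which drives myelination in Schwann cells, had 56 and 95 reads, 1.71-fold higher (1.21 to 2.42). Between both genes the ratio of reads was 1.04 times that of control, with an interval (0.719 to 1.496) that held 1. Egr3 had 27 and 33 reads, a ratio of 1.23 (0.717 to 2.13), whose interval held both 1 and the ratio of Egr1. Egr4 had 2 and 4 reads, under the filter. Nab2, a corepressor that binds EGR proteins, was at 33.6 and 51.1 CPM, 1.52-fold higher (1.38 to 1.68). Its relative Nab1 was at 42.8 and 43.6 CPM, and the interval of its ratio, 1.02 (0.926 to 1.12), held 1.

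Of 16 KLF genes 12 were measured, 10 of them with a log2 ratio above 0, against 60.9% of all genes. Klf4, known from pluripotency and epithelial differentiation (chr4:55527137-55532475), had 196 and 394 reads, 2.02-fold higher (1.7 to 2.41). With the pseudocount its log2 ratio was 0.94, just under the 2-fold threshold. Klf3, a repressor that recruits CtBP, had 402 and 766 reads, 1.92-fold higher (1.697 to 2.17). Klf5, a factor of proliferating epithelia, had only 19 and 47 reads, 2.49-fold higher (1.43 to 4.49); epithelial markers were high in the same library, as given above. Klf6, the most abundant per length of these 16 KLF genes, which leave out Klf9, at 21.5 and 32.8 FPKM, was 1.53-fold higher (1.44 to 1.62). Klf2, known from endothelium, was at 2.07 and 3.35 CPM, 1.61-fold higher (1.09 to 2.42). Klf11, a TGF-beta-inducible factor, was at 5.11 and 7.67 CPM, with a log2 ratio of 0.50, and the repressor Klf12 was at 3.52 and 4.95 CPM, 1.41-fold higher (1.03 to 1.93).

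Klf13 went the other way, at 97.7 and 75.7 CPM, 1.29-fold lower (1.21 to 1.38). Its deposited counts were not whole, and its span overlaps 2 other annotated genes. Such limits were not confined to Fosl1 and Klf13. Of the 43 members, 10 overlap another annotated gene, among them Klf3, Klf12, Egr2 and Mafg. Counts were not whole for 4 members, among them Klf11. Reads of Klf6 per read of Klf13 were 1.97 times as high in Seh1cKO (1.803 to 2.15), and those of Klf4 per read of Klf13 2.61 times as high in Seh1cKO (2.16 to 3.15). Klf13 took 18.2% of the length-scaled KLF reads in control and 11.1% in Seh1cKO, and Klf3 9.98% and 15.04%. For Klf7, Klf10, Klf15 and Klf16 the interval of the ratio held 1. These were at 10.8 and 11.7 CPM, 19.9 and 18.4 CPM, 18.5 and 19.6 CPM and 23.7 and 26.2 CPM, and the log2 ratio of Klf15 turned negative with TMM scaling. The KLF genes under the filter were Klf1 with 9 and 6 reads, Klf8 with 14 and 21 reads, Klf14 with 0 and 3 reads and Klf17 with 2 and 1 reads. A count of 0 in control allows up to 0.145 CPM.

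The MYC genes, which drive growth and ribosome production, pointed in opposite directions. Mycl, which encodes L-MYC (chr4:122995588-123002490), had 1089 and 459 reads, or 52.5 and 22.3 CPM. This was 2.36-fold lower (2.11 to 2.64), number 119 from the bottom of 13758 genes by log2 ratio. Myc had 1033 and 1566 reads, 1.53-fold higher (1.41 to 1.65). Mycn was at 4.44 and 5.97 CPM, 1.35-fold higher (1.02 to 1.78). Myc made up 54.8% (52.7 to 56.9) of the family's length-scaled reads in control and 78.2% (76.5 to 79.8) in Seh1cKO, and Mycl 40.7% (38.7 to 42.8) and 16.2% (14.8 to 17.6). Reads of Myc per read of Mycl were 3.596 times as high in Seh1cKO (3.14 to 4.12). The family sum stayed close, at 37.8 and 40.4 FPKM. Whether the Mycl reads came from the cells that carry the oligodendrocyte markers was not tested.

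The IER genes code for small regulators of early responses. Ier3, which affects cell survival, was the member with the highest level per length, at 131 and 174 FPKM, with 2913 and 3843 reads, 1.33-fold higher (1.26 to 1.39). Ier5, which acts with the heat shock factor HSF1, had 888 and 1503 reads, 1.703-fold higher (1.57 to 1.85). Ier2 had 533 and 666 reads, 1.26-fold higher (1.12 to 1.41). Ier5l had 1670 and 1685 reads, a ratio of 1.02 (0.948 to 1.09) whose log2 value turned negative with TMM, median-of-ratios and upper-quartile scaling. Ier3ip1, a protein of the endoplasmic reticulum that the rule took in by its symbol, had 1701 and 1473 reads, 1.15-fold lower (1.07 to 1.23). Dusp1, the phosphatase that switches off p38 and JNK, had 471 and 805 reads, 1.72-fold higher (1.53 to 1.93). Arc, known from synapses, had 37 and 67 reads, 1.82-fold higher (1.202 to 2.801). Srf, the factor at CArG boxes, had 884 and 1024 reads, 1.17-fold higher (1.06 to 1.28). Reads of Dusp1 per read of Fos were 1.63 times as high in Seh1cKO (1.42 to 1.88).

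The authors' deposited table of changed genes comes from the same libraries and lists 3 of the 43 genes. The share of all genes that it lists was not worked out, so this count has no background beside it. Its log2 fold changes, Seh1cKO over control, were 2.50 for Fosl1, 1.02 for Klf4 and -1.25 for Mycl in the authors' deposited table.

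Promoters are shown for Klf3, Klf4, Maff and Mafk, which were among the higher members, and for Mycl, the lowest. Each is the 250 bases before the RefSeq start in GRCm38.p6, 5′ to 3′ on the strand of the gene. Klf3 is chr5:64803271-64803520, Maff chr15:79347270-79347519, Mafk chr5:139791286-139791535 and Mycl chr4:122995681-122995930 on the plus strand, and Klf4 is chr4:55532476-55532725 on the minus strand. Of the 3 windows of Maff the one with most matches is shown. Capitals mark matches on either strand to the AP-1 site TGAGTCA, the CRE TGACGTCA, the CArG box, the EGR site GCGNGGGCG, the KLF and SP site GGGNGNGGC, the E-box CACGTG and TATAAA. EGR and KLF or SP matches can overlap and then run together.
Klf3: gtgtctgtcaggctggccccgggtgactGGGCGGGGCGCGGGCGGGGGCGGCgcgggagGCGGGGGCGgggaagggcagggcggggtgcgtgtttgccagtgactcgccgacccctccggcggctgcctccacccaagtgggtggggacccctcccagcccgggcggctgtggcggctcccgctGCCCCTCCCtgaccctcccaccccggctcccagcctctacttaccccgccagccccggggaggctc
Klf4: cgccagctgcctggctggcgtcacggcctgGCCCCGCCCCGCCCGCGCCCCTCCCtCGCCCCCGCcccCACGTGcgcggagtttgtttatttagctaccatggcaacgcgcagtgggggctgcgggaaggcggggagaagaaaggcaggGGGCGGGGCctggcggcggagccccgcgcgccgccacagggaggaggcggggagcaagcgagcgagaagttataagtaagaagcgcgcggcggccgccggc
Maff: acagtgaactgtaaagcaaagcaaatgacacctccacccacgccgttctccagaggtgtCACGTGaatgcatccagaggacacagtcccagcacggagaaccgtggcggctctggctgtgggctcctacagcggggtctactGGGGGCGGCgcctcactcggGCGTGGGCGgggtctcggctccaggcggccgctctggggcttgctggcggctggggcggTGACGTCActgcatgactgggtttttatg
Mafk: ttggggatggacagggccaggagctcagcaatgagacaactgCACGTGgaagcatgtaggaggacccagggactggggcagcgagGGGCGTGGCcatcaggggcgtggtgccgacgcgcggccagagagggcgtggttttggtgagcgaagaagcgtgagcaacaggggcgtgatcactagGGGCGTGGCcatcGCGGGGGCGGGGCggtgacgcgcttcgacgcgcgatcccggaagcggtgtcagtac
Mycl: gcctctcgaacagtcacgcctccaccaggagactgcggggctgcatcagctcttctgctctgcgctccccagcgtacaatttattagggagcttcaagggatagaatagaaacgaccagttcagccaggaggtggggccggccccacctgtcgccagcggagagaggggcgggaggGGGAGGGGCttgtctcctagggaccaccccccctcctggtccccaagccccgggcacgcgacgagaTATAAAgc
Klf3 held 3 EGR matches, the first 215 and the last 183 bases before the start, and 3 KLF or SP matches. Klf4 held 2 EGR matches between 211 and 186 bases before the start, 4 KLF or SP matches and an E-box. Maff held a CRE from 29 to 22 bases before the start and 1 EGR match, and Mafk 1 EGR match from 56 to 48. Mycl held 1 KLF or SP match and TATAAA from 8 to 3 bases before the start.

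A RefSeq promoter was matched for 31 of the 43 genes. The 31 include members under the filter, such as Klf8 and Klf17, while the genes set beside them were all measured. The 31 had 38 windows, and a gene counted if any of its windows held a match. Windows per gene were not compared with those of measured genes. Among the 12 without one were Arc, Egr1, Egr3, Fosl1, Ier2, Ier3ip1, Klf5, Klf10, Klf14, Klf16 and Myc. An EGR match stood in 9 (29.03%) of the 31, against 10.7% of 10920 measured genes with a promoter. An E-box stood in 10 (32.3%), against 9.72%, and a KLF or SP match in 17 (54.8%), against 42.8%. CArG boxes stood in 3 (9.68%), Egr2, Klf8 and Srf, against 1.39%. A CRE stood in 2 (6.45%), Dusp1 and Maff, against 3.104%, and TATAAA in 4 (12.9%), Fos, Klf12, Mycl and Srf, against 7.78%. TGAGTCA stood in a window of 0 of the 31 genes and of 3.95% of measured genes. The windows of members had a median GC content of 63.6%, against 60% for measured genes. A match describes letters, not a bound site.

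Genes that act with these factors were read from 12 lists, 183 genes of which 169 were measured. Of these 18 were 2-fold or more higher and 1 lower, beside 2.86% and 1.29% of all genes. The lists were chosen with earlier results in view and are no independent evidence. Known AP-1 target genes made up most of the higher ones, with 10 of 15 past 2-fold and a median log2 ratio of 1.44. Without a filter, or with a filter at 5 CPM, that median was 1.06. The cytokine Il11 was at 6.898 and 59.6 CPM, 8.63-fold higher (7.26 to 10.3). The matrix protease Mmp3 was at 2.94 and 24.6 CPM, 8.36-fold higher (6.404 to 11.1). Urokinase, Plau, was at 2.56 and 18.7 CPM and its receptor Plaur at 1.399 and 8.25 CPM. Of the EGF receptor ligands, Ereg was at 0.772 and 6.94 CPM and Areg at 0.386 and 3.74 CPM. Both passed the filter through Seh1cKO alone. The chromatin proteins Hmga2 and Hmga1 were at 8.297 and 38.1 CPM and 528 and 1097 CPM. Ccnd1, the cyclin of the early cell cycle, was at 495 and 1348 CPM, and the cytokine Lif at 4.82 and 11.2 CPM. Timp1, a protease inhibitor, was lower at 222 and 181 CPM. Fibroblast markers (209.6 and 622 CPM) and epithelial markers (11.1 and 204 CPM) were high in the same library, and their part in these values was not tested.

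The dual-specificity phosphatases that restrain MAP kinases, taken without Dusp1, split by member. Of 8 measured, 3 passed 2-fold, where 2.86% of all genes were at least 2-fold higher. Dusp6, which acts on ERK in the cytosol, was at 37.6 and 102 CPM, 2.72-fold higher (2.51 to 2.96). Dusp4 was at 14.7 and 35.2 CPM, 2.395-fold higher (2.09 to 2.75), and Dusp5 at 2.75 and 6.505 CPM, 2.37-fold higher (1.72 to 3.28). Dusp7 and Dusp8 had log2 ratios of -0.21 and -0.09. The kinases upstream had a median log2 ratio of 0.08 over 25 genes, 24 of them within 2-fold. Mapk13, the p38 delta kinase, was the exception at 1.302 and 6.89 CPM, 5.29-fold higher (3.49 to 8.31). Mapk12, p38 gamma, was at 6.51 and 13.1 CPM, Rps6ka1 at 27.8 and 43.2 CPM, and Mapk3, which encodes ERK1, at 189 and 142 CPM.

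Other immediate early genes held both directions, as the factors did. Of 33 measured, 24 had a log2 ratio above 0, with a median of 0.25, and 2 passed 2-fold, Dusp5 and Ctgf. Over all genes 60.9% had a log2 ratio above 0 and 2.86% were at least 2-fold higher. Ctgf, a matrix-associated growth factor, was at 16.3 and 40.6 CPM, 2.496-fold higher (2.197 to 2.84). Vgf, a neuropeptide precursor, was at 91.8 and 175 CPM, Plk2 at 37.1 and 68.01 CPM and Btg2 at 25.2 and 44.1 CPM. Atf3 and Rhob were nearly level, with log2 ratios of -0.01 and 0.01, and Id1 was lower, at 218 and 154 CPM.

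The bZIP partners of AP-1 had a median log2 ratio of 0.00 over 17 genes. Nfe2l3, a relative of NRF2 that pairs with small MAF proteins, was the 1 past 2-fold, at 6.42 and 1.21 CPM, 5.29-fold lower (3.43 to 8.46). Atf5, Jdp2 and Atf4 had log2 ratios of -0.49, -0.49 and -0.37, and Atf1 of 0.47. Of 9 measured partners in the MYC and MAX network 0 passed 2-fold, with a median of 0.04. Max, the shared partner, was at 57.98 and 61.9 CPM, and Mxi1 and Mxd1, which compete with MYC for it, at 101 and 58.01 CPM and 25.1 and 18.7 CPM. Known MYC target genes had a median of 0.27 over 21 genes. Mcm5, a replication helicase subunit, passed 2-fold at 27.98 and 58.2 CPM, and Ldha was lowest at 1410.4 and 990.1 CPM.

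The SRF cofactors Mkl1 and Mkl2, also called MRTFs, had log2 ratios of 0.30 and 0.39. Of 20 cytoskeletal SRF target genes 18 had a log2 ratio above 0, against 60.9% of all genes. The median of the 20 was 0.44. Cnn2, a calponin, was the 1 past 2-fold, at 22.5 and 66.7 CPM, 2.96-fold higher (2.66 to 3.296). Cnn1, Myh9 and Cald1 had log2 ratios of 0.98, 0.89 and 0.89, while Actb and Actg1 had 0.07 and 0.03. Acta2 and Tagln stand both here and among the fibroblast and mural markers. SP factors, which share the GC-rich site of KLF proteins, had a median of 0.37 over 7 genes, with Sp1 at 38.1 and 49.3 CPM and Sp8 at 4.1 and 8.11 CPM. Known EGR target genes had a median of 0.27 over 12 genes, and Pdgfb, a growth factor, passed 2-fold at 2.56 and 7.62 CPM.

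**Figure D5:**
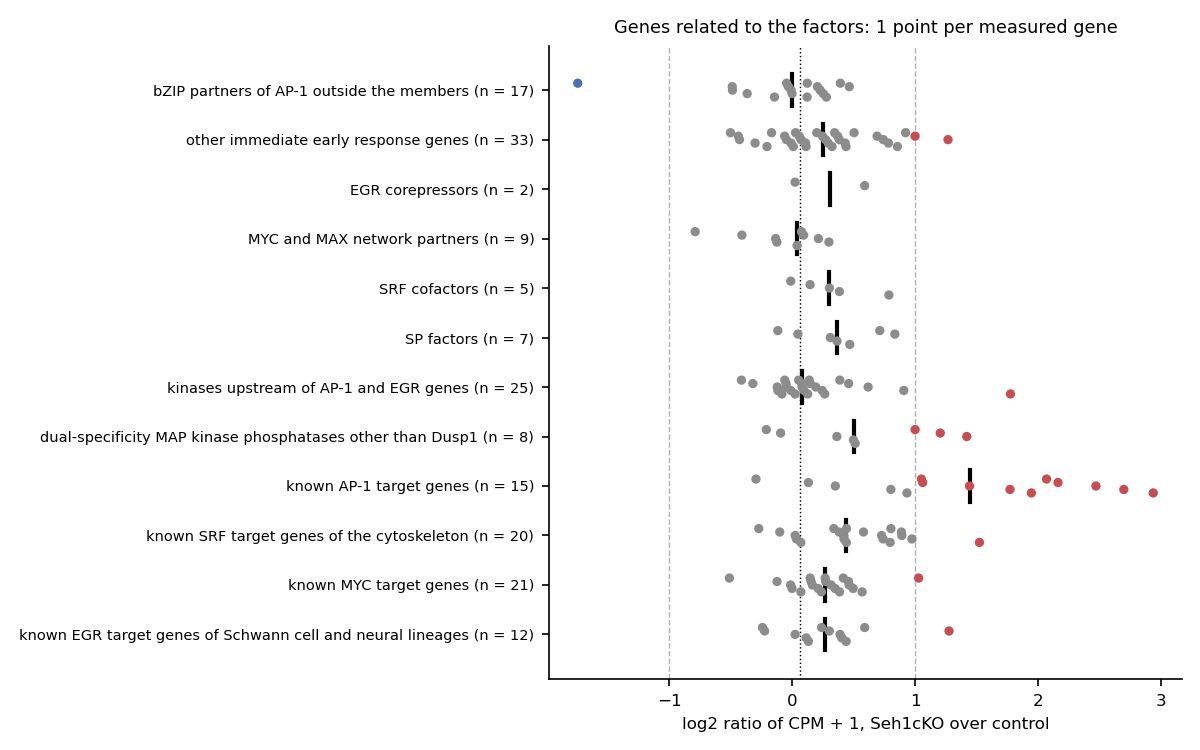
log2 ratio of CPM + 1 for measured genes of the 12 related lists, 1 point per gene, with black bars at list medians, dashed lines at 2-fold and a dotted line at the median of all genes (0.07). AP-1 target genes have a median of 1.44 and reach 2.94, while bZIP and MYC network partners centre at 0.00 and 0.04.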

How the data were processed

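RNA sequencing was analysed from 1 control and 1 Seh1cKO library. Per the file headers, the authors deposited for each gene an expected count and its FPKM, and a table of changed genes with log2 fold changes, p-values and false discovery rates, whose 2 columns of per-library values were not used. HTSeq, StringTie and mm10 appear, with no role, in the submitters' processing notes; aligner, strand setting and test are not stated in what was used here. Genes missing from a library's table were set to 0. Expected counts, not whole for 29.3% and 29.5% of genes, were rounded and divided by their totals of 20730114 and 20599590 reads to give CPM. Genes averaging 1 CPM or more were measured; a pseudocount of 1 CPM entered log2 ratios only. Intervals are exact (Clopper-Pearson, 95%; conditional for ratios of 2 read ratios), cover counting error only, and for shares hold the mix of the other members fixed. Members and lists were chosen with earlier results of these data known. Values of 1 member and 1 marker gene are not reported here, though counts, medians and sums hold them; every other member is accounted for; of a related list, genes past 2-fold or up to 4 of the largest log2 ratios from 5 CPM were named, and some others (such as Nab1, Dusp8, Atf3, Rhob, Max, Actb, Actg1 and Zfp36) after their values were seen. Coordinates and promoters come from RefSeq, GRCm38.p6. Scripts were tested on simulated data. Python 3.11.15, scipy 1.17.1, R 4.3.3, edgeR 4.0.16 (TMM) and DESeq2 1.42.0 (median of ratios) were used, the last 2 for scaling alternatives only. Other alternatives were upper-quartile scaling, pseudocounts of 0.1 and 5, FPKM, no filter and a filter at 5 CPM.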

Additional observations from a re-analysis of the deposited data

How the results depend on the processing

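No paired analysis was possible because each group holds 1 library, and leaving out a replicate was not possible for the same reason. The median log2 ratio of the members lay between 0.26 (pseudocount of 5) and 0.45 (pseudocount of 0.1) under all alternatives. With a pseudocount of 0.1, 3 members were at least 2-fold higher, and without the 4 members whose counts were not whole, an alternative chosen after seeing the data, 0 were, because Fosl1 is among those 4. At 1.5-fold, 9 members were higher with a pseudocount of 5, and 2 were lower with a pseudocount of 0.1, with the median-of-ratios, TMM or upper-quartile scaling and with FPKM. All genes at least 2-fold higher numbered 637 (pseudocount of 0.1), 141 (pseudocount of 5), 204 (FPKM) and 228 (filter at 5 CPM), and 116 were lower with a pseudocount of 5. At 1.5-fold they were 612 (pseudocount of 5), 810 (FPKM) and 821 (filter at 5 CPM) higher, and 303 lower with a pseudocount of 5. No related gene was 2-fold lower (0) with a pseudocount of 5 or a filter at 5 CPM, since Nfe2l3 is at a low level. Of 296 alternative values of single members, 8 had another sign than the main value. They belonged to 4 members near equality, Fos, Jund, Klf15 and Ier5l, each under a change of scaling. By construction, the pseudocount and the filter act on low genes, and a change of scaling moves all log2 ratios in the same direction. Apart from these, the cause of the shifts was not tested. Without a replicate, none of these values separates the genotype from variation between cultures.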

Other observations

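The measured members were compact genes. Their median span in the RefSeq annotation was 7571.5 bases, against 24123 bases for all measured genes, and their median number of exons was 3, against 9. Of the 38, 11 (28.9%) had no more than 2 exons, against 7.45% of measured genes. Jun, Junb, Jund, Ier2, Ier5 and Ier5l were among those with 1 exon. Klf12 and Klf7 were the longest measured members, at 419711 and 92898 bases.

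Klf9, a thyroid hormone target that the rule leaves out, had 1543 and 1703 reads, 1.11-fold higher (1.04 to 1.19). Its close relative Klf13 had 2025 and 1560 reads, 1.29-fold lower (1.21 to 1.38). Zfp36, whose protein shortens the life of many early RNAs, was at 12.4 and 18.01 CPM, 1.45-fold higher (1.24 to 1.71). Summed over all 43 genes, the factors took 1705 and 2043 CPM.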
